A study of Mus musculus with 9 samples.

Results

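The odorant receptor genes whose symbols run from Olfr825 to Olfr979, with or without a -ps suffix, were followed in the main olfactory epithelium. The rule on the symbols took 145 of the 55291 genes of the deposited table and left 1263 other genes with an Olfr symbol. RNA-seq was from 3 wild-type C57BL/6 mice, 3 Ms4a cluster KO mice (C57BL/6; Ms4a cluster-/-) and 3 Ms4a6c KO mice (C57BL/6; Ms4a6c-/-), all 8 to 12 weeks old, with the wild-type mice described as littermate controls of the knockouts. According to the study's methods, the cluster was removed with CRISPR/Cas9 and Ms4a6c by homologous recombination. No odor exposure is named for these 9 mice. The Ms4a genes code for membrane proteins that the study examined as odor receptors of a kind unrelated to the Olfr family. The comparison asks how levels of ordinary receptor genes stood in mice without the whole Ms4a cluster or without Ms4a6c alone.

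Odorant receptors of the Olfr family are G protein-coupled receptors, and each mature olfactory sensory neuron is known to transcribe a single allele of a single such gene. In whole epithelium the level of a receptor RNA therefore reflects both how many neurons chose the gene and how much RNA each of them holds, and in bulk samples fewer cells of a type and less RNA per cell cannot be told apart. Receptor genes lie in clusters, most have an uninterrupted coding exon preceded by noncoding exons, and many have decayed into pseudogenes. Receptors are grouped into class I, which resembles the receptors of fish, and class II, to which the receptors of chromosome 9 belong.

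The total of a library was between 13954591 and 21987174 expected counts. CPM scales a count to the library size after TMM normalization. The floor used for a single library was 3 counts, and it covers counting error only. With plain library totals, without the TMM factor, the floor corresponded to 0.136 to 0.215 CPM. That range is not on the TMM scale of the other CPM values. On the TMM scale, 3 counts of Olfr829 in Ms4a cluster KO mouse 2 were 0.299 CPM. Ms4a6c, targeted in both knockouts, had expected counts of 53.95, 90.34 and 81.53 with the wild-type genotype. It was at 0 in every Ms4a cluster KO mouse and at 0, 2.35 and 2 in the Ms4a6c KO mice. Ms4a7 and Ms4a1 were at 0 in every Ms4a cluster KO mouse as well. In the Ms4a6c KO mice Ms4a7 had 94, 40 and 49 counts and Ms4a1 had 13, 26 and 8. Markers of mature olfactory sensory neurons were abundant in every library, with 5 of 5 listed genes detected and a summed level of 9511 to 12160 CPM. A pair of libraries stood apart, wild-type mouse 1 and Ms4a cluster KO mouse 2, in which Bpifb9b, a secreted protein gene of nasal glands, took 10.42% and 10.19% of all counts against at most 3.28% in the other mice. The gland markers (3 of 3 detected) summed to 1870 to 148900 CPM in wild-type, 662.6 to 145100 in Ms4a cluster KO and 941.7 to 31020 in Ms4a6c KO mice. Bpifb9b made up nearly all of the sum in this pair (148500 and 144700 CPM). Sox10, another of the 3, was also highest in the pair (48.12 and 39.96 CPM). Muc5b was not, at 366.1 and 283.6 CPM against 324.6 to 452.7 in the other mice. The pair is called gland-rich below on the level of Bpifb9b. Omp, a marker of mature sensory neurons, was lowest in the same 2 libraries, at 4500 and 4017 CPM. Sustentacular cell markers (5 of 5 detected) summed to 7661 to 8576 CPM in wild-type, 7500 to 8670 in Ms4a cluster KO and 9552 to 10290 in Ms4a6c KO mice. Cyp2g1 was the largest part of these sums, at means of 4608, 4538 and 5747 CPM in the same order. Ermn alone of the 5 was lower in Ms4a6c KO than in wild-type mice. Its means were 150.7 CPM in wild-type, 120.1 in Ms4a cluster KO and 113.7 in Ms4a6c KO mice. Erythrocyte markers (3 of 3 detected) summed to 404.8 to 557.6, 488.5 to 1287 and 491 to 1388 CPM in the same order. Xist was above 1 CPM in 2 of 3 wild-type, 3 of 3 Ms4a cluster KO and 2 of 3 Ms4a6c KO mice. The genotypes were thus not balanced for Xist. The part of these differences in the receptor values was not tested.

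The label of chromosome 9 held for 142 of the 145 genes. The other 3, Olfr825, Olfr826 and Olfr827, lie on chromosome 10 of GRCm38, between 130159732 and 130214403 on the minus strand. The chromosome 9 genes formed a pair of blocks. The proximal block held 44 genes from Olfr828 to Olfr873 between 18814728 and 20303599, a span of 1.489 Mb, with 22 genes on each strand. The distal block held 98 genes from Olfr874 to Olfr979 between 37745106 and 40003465, a span of 2.258 Mb, with 67 genes on the plus strand and 31 on the minus strand. A further 31 Olfr genes of chromosome 9 have symbols outside the range, 27 of them detected, and were counted among the other receptors.

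Of the 145 genes, 100 were detected, meaning 10 or more counts summed over the 9 libraries (69.0%, against 1009 of the 1263 other Olfr genes, or 79.9%). Of these, 81 had more than 3 counts in every mouse. At the other end, 28 genes had 0 counts in all 9 mice. Detection followed the annotated gene type. Among 107 genes annotated as protein-coding, 98 were detected (91.6%). Of the 28 unprocessed pseudogenes 0 were detected, 24 of them had 0 counts throughout, and together they held 12 counts. Among 10 polymorphic pseudogenes, which are intact in some mouse strains and broken in others, 2 were detected. By block, 28 of 44 proximal, 69 of 98 distal and 3 of 3 chromosome 10 genes were detected.

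**Figure D1:**
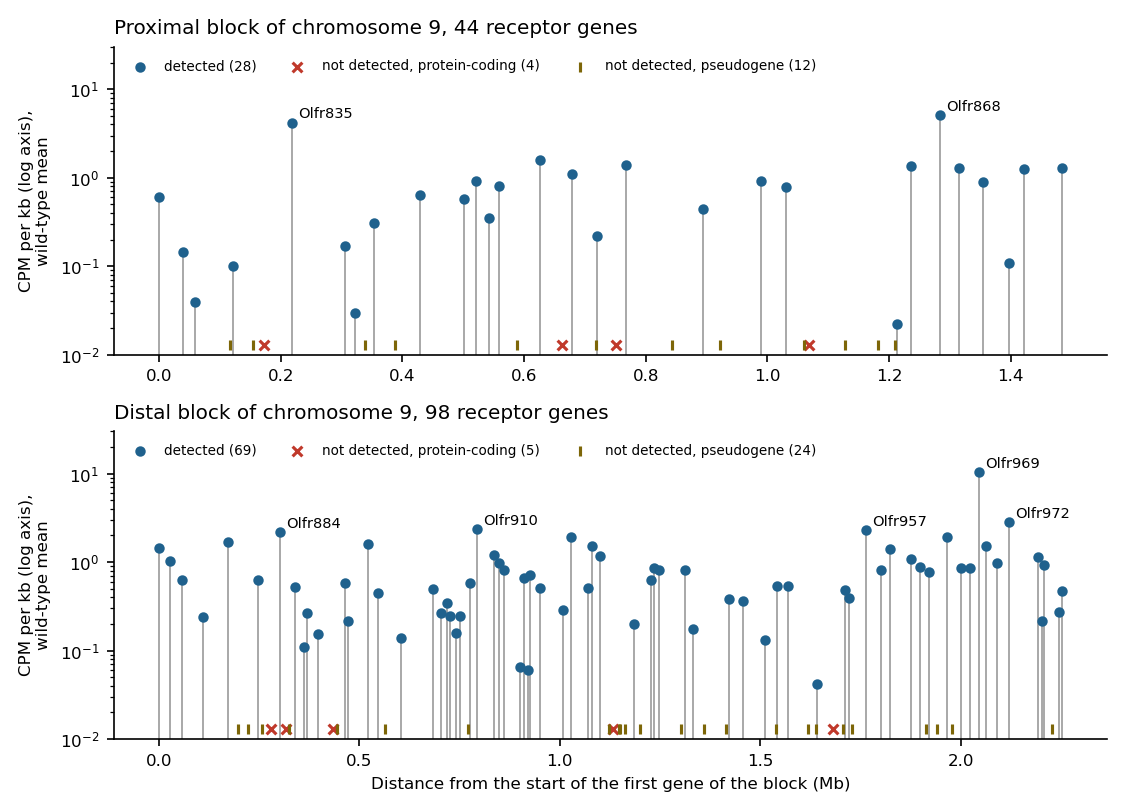
Mean level in the 3 wild-type mice (CPM per kb of merged exons, log axis) against distance in Mb from the start of the first gene of each chromosome 9 block, with detected genes as points and undetected genes as marks at the foot. Detected and undetected genes alternate along both blocks, and the highest genes (Olfr969 at 10.5, Olfr868 at 5.13 and Olfr835 at 4.19 CPM per kb) are not neighbours.

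The -ps suffix and the annotated type did not always go together. Of 38 symbols with the suffix, 4 were detected, and 3 of those 4 are annotated as protein-coding genes. These 3 were also the highest of the suffixed genes. Olfr839-ps1 had 475 counts over the 9 libraries, Olfr911-ps1 298 and Olfr896-ps1 235. Olfr839-ps1 was at 2.77, 1.89 and 2.56 CPM in the wild-type mice, and Olfr911-ps1 at 1.56, 2.16 and 2.50 CPM, so both lay within the range of intact receptors. The remaining gene, Olfr947-ps1, lies outside the rule for named genes and is given because it completes the count of detected suffixed genes, with 208 counts.

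Detection also followed the length of the gene model. Of the 96 genes whose merged exons cover 1200 bases or more, 95 were detected, against 5 of the 49 shorter ones, whose models hold little beyond a coding exon. The same split held among protein-coding genes, with 94 of 95 against 4 of 12. The rule of 10 counts is not scaled to length, and a longer model collects more counts at the same level. The part of this in the split was not tested. The 9 undetected protein-coding genes had 0 to 6 counts over all libraries, and 3 of them were at 0, which allows at most 3 counts in a library. The lowest detected genes were Olfr866 and Olfr917 with 10 counts each and Olfr915 with 14, and in each of these the 9 mice had between 0 and 4 counts, so no difference between genotypes was detectable at this depth. Their values mark the edge of the rule of 10 counts, with Olfr862, at 6 counts, the highest of the undetected protein-coding genes just outside it.

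Levels of the detected genes covered a wide range. Per kb of merged exons, the highest in wild-type mice was Olfr969, at 5.92, 13.1 and 12.4 CPM per kb in the 3 mice (10.5 ± 3.95, SD, n = 3). The median gene was at 0.626 CPM per kb, with quartiles of 0.270 and 1.09, so that Olfr969 stood 16.7 times above the median. The other detected Olfr genes had a higher median, 1.14 CPM per kb, and a maximum of 56.5, and Olfr969 ranked at place 12 of the 1109 detected Olfr genes. The sum was unevenly shared, since 17 genes held 50% of the summed CPM. Medians of the blocks were close, at 0.715 CPM per kb for 28 proximal, 0.626 for 69 distal and 0.619 for 3 chromosome 10 genes.

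After Olfr969 came Olfr868 at 5.13 ± 1.14 and Olfr835 at 4.19 ± 0.606 CPM per kb (SD, n = 3), both of the proximal block. Then followed 7 distal genes, Olfr972 (2.83), Olfr910 (2.36), Olfr957 (2.30), Olfr884 (2.20), Olfr921 (1.93), Olfr965 (1.90) and Olfr878 (1.70), all in CPM per kb. Only 2 of the 99 steps between neighbours in the order were larger than the SD of both neighbours, the step from Olfr969 to Olfr868 and that from Olfr835 to Olfr972, so the remaining neighbours did not differ beyond their spread. Of the first 10 genes in wild-type mice, 9 were among the first 10 in Ms4a cluster KO mice and 9 in Ms4a6c KO mice. The order rests on gene length. Without division by length, Olfr868 was the highest, at 21.7 ± 4.82 CPM against 16.7 ± 6.31 for Olfr969 (SD, n = 3), and 6 of the first 10 genes remained among the first 10.

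**Figure D2:**
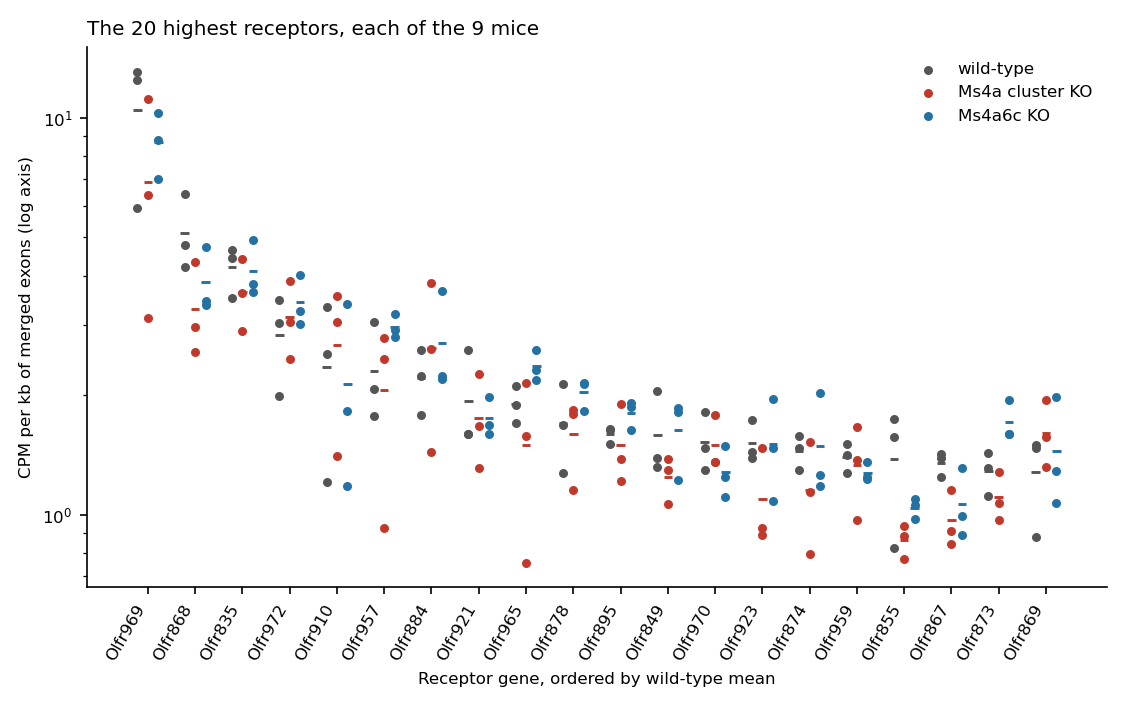
CPM per kb of merged exons (log axis) of the 20 highest receptors by wild-type mean, with a point for each of the 9 mice and a short line at each genotype's mean. The points of the 3 genotypes overlap for most genes, and Olfr969 ranges from 3.12 to 13.1 CPM per kb.

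Olfr969 (GRCm38, chromosome 9, 39790945 to 39796635, plus strand) varied among mice more than it did among genotype means. It was at 9.45, 20.85 and 19.85 CPM in wild-type, 10.22, 4.98 and 17.74 in Ms4a cluster KO and 16.39, 11.16 and 14.01 in Ms4a6c KO mice. The groups overlap, and the lowest values in the first 2 genotypes are those of the 2 libraries rich in Bpifb9b RNA. Over the 9 mice, the genes most like it in log2 CPM were Olfr961 (Pearson r = 0.901), Olfr845 (r = 0.893) and Olfr890 (r = 0.876), a description over samples that share depth and tissue makeup. Both gland-rich libraries together were the 2 lowest of the 9 mice for 9 of the 100 detected genes and the 2 highest for 1. For the other detected Olfr genes the shares were 8.33% lowest and 1.39% highest. All 9 of the genes lowest in the pair, Olfr969, Olfr957, Olfr884, Olfr878 and Olfr961 among them, are of the distal block. So is Olfr970, the 1 gene highest in the pair, and so are 69 of the 100 detected genes.

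Where a receptor gene begins can be shown for few of these genes. RefSeq (GRCm38.p6) gives a window around the start of 91 of the 145 genes, 92 windows in all, but 63 of the windows start at the ATG of the coding sequence. In 8 windows the start was not an ATG and lay within 100 bases of the GENCODE gene's own start. The 250 bases upstream of the start are printed for Olfr868 (chr9:20098376-20098625, plus strand), which had the highest CPM of all, for Olfr872 (chr9:20236912-20237161, plus strand), another gene of the proximal block, and for Olfr910 (chr9:38537632-38537881, plus strand), a distal gene among the first 10. Each is written 5′ to 3′, with matches to TAATTA, the homeodomain core that Lhx2 and Emx2 are known to bind, in capitals.
Olfr868: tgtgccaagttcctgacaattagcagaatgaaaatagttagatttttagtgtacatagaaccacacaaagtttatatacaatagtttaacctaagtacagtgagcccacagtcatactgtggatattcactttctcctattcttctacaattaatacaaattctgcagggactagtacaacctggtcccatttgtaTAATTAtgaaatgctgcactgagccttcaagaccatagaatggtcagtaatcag
Olfr872: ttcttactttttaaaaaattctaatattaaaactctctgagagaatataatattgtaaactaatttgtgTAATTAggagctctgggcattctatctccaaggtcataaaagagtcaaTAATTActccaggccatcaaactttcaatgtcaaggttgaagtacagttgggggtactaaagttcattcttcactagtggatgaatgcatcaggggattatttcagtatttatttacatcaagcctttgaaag
Olfr910: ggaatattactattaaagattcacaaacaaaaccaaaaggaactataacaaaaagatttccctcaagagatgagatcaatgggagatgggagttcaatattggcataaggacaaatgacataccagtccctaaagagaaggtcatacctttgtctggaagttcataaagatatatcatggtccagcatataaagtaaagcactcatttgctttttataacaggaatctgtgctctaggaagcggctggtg
TAATTA, which reads the same on both strands, was present in 2 of the 8 windows, those of Olfr868 and Olfr872, against 4.84% of all 32851 RefSeq windows. Both windows with a match are printed, so the printed windows overstate the share. The window of Olfr871, also of the proximal block, holds no match and is not printed. TCCCNNGGG, the core of the Olf1/EBF site, searched on both strands with no overlap with TAATTA, was in 0 of the 8 and in 5.60% of all windows. A match is only a run of letters in this window, and 8 windows are too few for a share.

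Reads of near-identical receptors cannot always be assigned. Of the 100 detected genes, 44 had a stretch of 90% identity or more over at least 300 bases in another gene, and for 34 that gene was itself in the range. Olfr825 and Olfr826, the chromosome 10 neighbours, were the most alike, at 96.5% over 968 aligned bases, and their coding sequences differed at 33 of 939 compared bases. The first 150 coding bases are printed to show how little separates them (Olfr825 at chr10:130163175-130163324 and Olfr826 at chr10:130180729-130180878, GRCm38, minus strand), with the differing base in capitals.
Olfr825: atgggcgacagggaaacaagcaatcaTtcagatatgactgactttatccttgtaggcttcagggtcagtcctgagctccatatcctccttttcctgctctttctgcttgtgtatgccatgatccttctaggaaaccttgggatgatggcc
Olfr826: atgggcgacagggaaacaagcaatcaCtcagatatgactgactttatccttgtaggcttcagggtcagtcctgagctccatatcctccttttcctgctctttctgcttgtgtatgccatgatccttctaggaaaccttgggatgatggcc
A single base differs in this stretch, so a read that falls within it tells the genes apart only at that base. The expected counts of Olfr825 were fractional in 9 of 9 mice while the sum of the pair was whole in all of them (within 0.025 counts), as were those of Olfr910 with Olfr912, which are 95.0% identical over 1052 bases. Summed, Olfr825 and Olfr826 were at 4.60 ± 0.617 CPM in wild-type, 4.27 ± 0.124 in Ms4a cluster KO and 5.18 ± 1.72 in Ms4a6c KO mice (SD, n = 3 each). The sum of Olfr910 and Olfr912 was 11.7 ± 4.79, 11.5 ± 4.50 and 8.26 ± 3.58 CPM in the same order. In Olfr870 and Olfr871, 94.8% identical over 1133 bases, the expected count of Olfr870 was fractional in 1 of 9 mice, and Olfr870 was at 3.62 ± 0.781 CPM against 0.123 ± 0.115 for Olfr871 in wild-type mice (SD, n = 3). Olfr874 and Olfr875 were 93.6% identical over 1240 bases, with counts of Olfr874 whole in every mouse. The sum of this last pair was not whole in 2 of 9 mice. The levels of the single genes of the first 2 pairs, and of Olfr875 in those mice, are uncertain because reads were divided. For the first 2 pairs the genotypes overlapped in both sums.

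The summed level of all 145 genes was 262, 308 and 301 CPM in the wild-type mice, 251, 236 and 286 in the Ms4a cluster KO mice and 331, 304 and 296.5 in the Ms4a6c KO mice. The Ms4a cluster KO mean differed from wild-type by -32.8 CPM (257.6 ± 25.5 against 290.4 ± 24.9, SD, n = 3 each) and the Ms4a6c KO mean by 20.2 CPM (310.7 ± 18.3). Both knockouts overlapped with wild-type, whereas every Ms4a cluster KO mouse was below every Ms4a6c KO mouse. The overlap of Ms4a cluster KO with wild-type was gone without wild-type mouse 1 (difference -47.05 CPM), without Ms4a cluster KO mouse 3 (-46.9 CPM) and without both gland-rich libraries (-36.4 CPM). Those single mice are the lowest wild-type and the highest Ms4a cluster KO mouse. Leaving out either, or the gland-rich pair, which holds wild-type mouse 1, removes the overlap by construction and does not show a separation. The overlap remained when any other single mouse of these genotypes was left out (-22.2 CPM without Ms4a cluster KO mouse 2). The Ms4a6c KO difference was 6.00 CPM without wild-type mouse 1 and 9.89 CPM without Ms4a6c KO mouse 1. As a share of the CPM of all Olfr genes the 145 genes made up 3.96% to 4.56% in wild-type, 3.74% to 4.51% in Ms4a cluster KO and 4.38% to 5.03% in Ms4a6c KO mice. On this scale the 3 genotypes overlapped. No test was run on these sums, because the genes were chosen with earlier results known.

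The proximal block stood apart between Ms4a cluster KO and wild-type mice. It summed to 99.4, 107 and 107 CPM in the wild-type mice and to 80.0, 87.0 and 90.8 in the Ms4a cluster KO mice, so that all 3 knockout values lay below all 3 wild-type values, with a difference of means of -18.5 CPM. A sum weighs genes by level, and Olfr868, the highest by CPM (21.7 in wild-type), had a log2 fold change of -0.63. Of the 28 detected proximal genes, 19 were negative and 9 positive. In Ms4a6c KO mice the block was at 115, 109.5 and 104 CPM, overlapping with wild-type. As a share of all Olfr CPM the Ms4a cluster KO mice, at 1.195% to 1.51%, and the wild-type mice, at 1.501% to 1.62%, overlapped slightly, and with plain library sizes they overlapped too, so the gap depends on the scaling. The distal block overlapped throughout, at 153 to 191 CPM in wild-type, 138 to 184 in Ms4a cluster KO and 181 to 204 in Ms4a6c KO mice. The chromosome 10 genes were at 9.50 to 9.87 CPM in wild-type, 9.47 to 11.4 in Ms4a cluster KO and 10.85 to 12.7 in Ms4a6c KO mice, and the last did not overlap with wild-type.

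**Figure D3:**
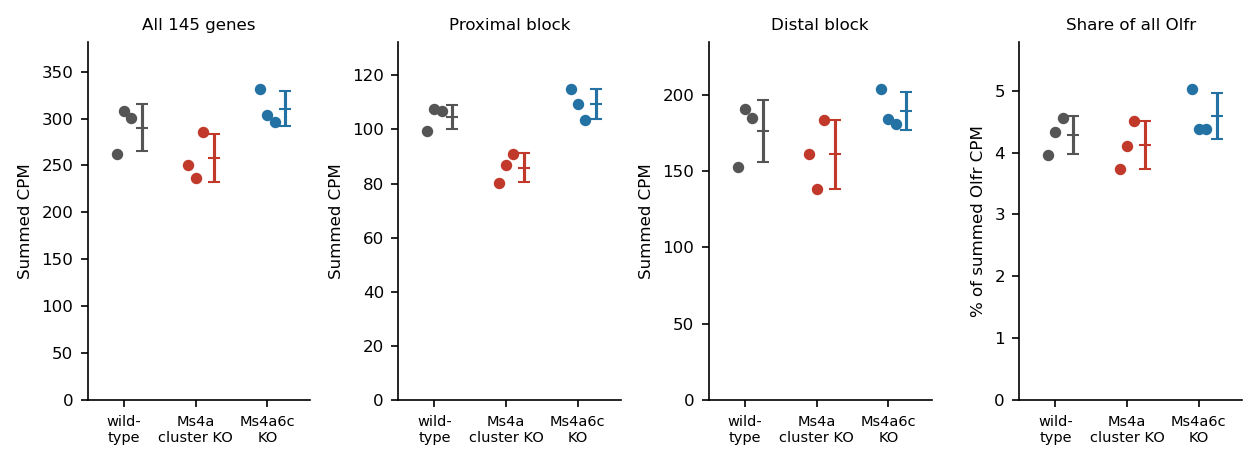
Summed CPM of all 145 genes and of the proximal and distal blocks, and the share of all Olfr CPM in percent, with a point per mouse and the mean ± SD of 3 mice beside the points. The proximal sums of Ms4a cluster KO mice (80.0 to 90.8 CPM) lie below those of wild-type mice (99.4 to 107 CPM), while the other sums and the share overlap between these genotypes.

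Gene by gene, 0 of the 100 detected receptors changed in Ms4a cluster KO mice against wild-type in the quasi-likelihood test of edgeR (adjusted p under 0.05), where 0.0258% of the 23225 genes tested did, and the smallest adjusted p among the receptors was 0.968. DESeq2 called 0 as well (0.0775% of all genes). At an unadjusted p under 0.05, 2 receptors were higher and 7 lower, against 2.25% and 2.68% of all genes. Among the 1009 other Olfr genes 16 were higher and 76 lower. Of the 7 lower ones, 6 were among the 28 proximal receptors and 1 among the 69 distal ones. The genotypes did not overlap for 1 receptor that was higher and 7 that were lower, against 4.71% and 5.15% of all genes and 24 and 93 of the other Olfr genes. Without wild-type mouse 2 the receptors with an unadjusted p under 0.05 numbered 3 in place of 9, and without Ms4a cluster KO mouse 1 they numbered 5. Without both gland-rich libraries they numbered 10 and 0 were called. The median log2 fold change was -0.08 over the 100 receptors, -0.08 over the other 1009 detected Olfr genes and 0.01 over all genes, with -0.18 for the proximal and -0.08 for the distal block. With libraries scaled by summed Olfr counts, which shifts the median of all genes to 0.12, the receptors' median was 0.01 and 53 of 100 were higher in place of 34. Relative to the median of all genes, the receptors' median was -0.09 with TMM and -0.11 with this scaling, and that of the proximal block -0.19 with both. The other Olfr genes were at -0.09 with both. A change of scaling shifts all genes about alike, and subtracting the median of all genes takes that shift out again. The likeness between scalings was thus fixed in advance and is no support for the proximal difference.

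Olfr859, a proximal receptor with the smallest p in this comparison, was at 8.46, 8.04 and 9.84 CPM in wild-type mice and at 4.86, 6.38 and 6.36 CPM in Ms4a cluster KO mice, with no overlap. The log2 fold change was -0.59 (SE 0.152, edgeR adjusted p = 0.968). Its transcript is 95.3% identical to that of Olfr58, a receptor outside the range, over 2447 bases, and 93.4% identical to that of Olfr857, a proximal receptor, over 2116 bases, and 11 genes in all hold such a stretch, so the division of reads among them is uncertain. The expected counts of Olfr859 and Olfr58 together were still fractional in 2 of 9 mice, whereas the sum of all 3 receptors was whole in every mouse. That sum was 10.73, 10.26 and 11.72 CPM in wild-type and 6.26, 8.37 and 7.92 CPM in Ms4a cluster KO mice, and it did not overlap either. Olfr868, the receptor with the highest CPM, was at 17.84, 27.12 and 20.19 CPM in wild-type and 12.57, 10.86 and 18.29 in Ms4a cluster KO mice, overlapping in a single value (log2 fold change -0.63, SE 0.219, edgeR adjusted p = 0.968). Olfr872 was at 2.63, 2.61 and 1.88 against 1.50, 1.69 and 1.002 CPM, and Olfr867 at 6.40, 6.54 and 5.75 against 4.21, 3.89 and 5.31 CPM, both without overlap. Olfr872 is 92.3% identical to Olfr869 over 1446 bases, and the sum of that pair, 4.19, 5.27 and 4.49 against 3.86, 4.49 and 4.46 CPM, overlapped. Among the distal genes Olfr974 was at 3.91, 4.60 and 3.58 CPM in wild-type and 2.45, 3.39 and 2.21 in Ms4a cluster KO mice, again without overlap (log2 fold change -0.61, SE 0.207, edgeR adjusted p = 0.968). Because none of these passed the adjusted test, the values stand as a description.

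Between Ms4a6c KO and wild-type mice edgeR also called 0 of the 100 receptors at an adjusted p under 0.05 (0.435% of all genes), and the smallest adjusted p was 0.178. DESeq2 called 1, Olfr851, against 1.49% of all genes, and gave 18 of the 100 receptors no adjusted p. At an unadjusted p under 0.05, 9 were higher and 0 lower, against 5.35% and 5.12% of all genes. The genotypes did not overlap for 9 receptors that were higher and 3 that were lower, against 9.71% and 8.55% of all genes, so the share that was higher was near the background and the share that was lower was under it. Among the 1009 other Olfr genes 69 were higher and 59 lower at an unadjusted p under 0.05, and 124 were higher and 81 lower without overlap. Leaving out wild-type mouse 1 raised the number with an unadjusted p under 0.05 from 9 to 15, while leaving out wild-type mouse 2 or Ms4a6c KO mouse 2 lowered it to 4. Without both gland-rich libraries the number was 15 and 0 were called. The median log2 fold change was 0.20 over the 100 receptors, 0.27 for the proximal and 0.18 for the distal block, against 0.07 for the other Olfr genes and 0.00 for all genes. Scaling by summed Olfr counts left it at 0.20.

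Olfr851 (chromosome 9, 19493295 to 19502815, plus strand) was the clearest of these. It was at 6.26, 9.10 and 8.31 CPM in wild-type, 7.71, 10.46 and 7.47 in Ms4a cluster KO and 13.12, 11.97 and 12.23 in Ms4a6c KO mice. The Ms4a6c KO values were above all 6 others. Against wild-type the log2 fold change was 0.65 (SE 0.168, edgeR adjusted p = 0.178, with DESeq2 adjusted p = 0.0396). The call thus depends on the tool. Olfr873 was at 7.25, 5.66 and 6.66 CPM in wild-type and 8.07, 9.86 and 8.09 in Ms4a6c KO mice, and Olfr954 at 1.99, 1.22 and 1.54 against 2.21, 2.85 and 2.61, neither with overlap. Olfr839-ps1 was at 3.20, 3.47 and 4.20 CPM in Ms4a6c KO mice, above all 3 wild-type mice, and Olfr905 at 2.42, 2.36 and 1.53 against 1.56, 0.998 and 0.683, overlapping in a single value. The edgeR adjusted p of these 4 receptors lay between 0.333 and 0.398. The long model of Olfr839-ps1 shares near-identical stretches with 37 other genes, 17 of them not receptors, so its level is uncertain.

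Olfr951 was near the floor in wild-type mice and above it in both knockouts. Its expected counts were 1.16, 0 and 3.27 in the wild-type mice, 7.69, 4 and 7.30 in the Ms4a cluster KO mice and 9.98, 5.33 and 5.49 in the Ms4a6c KO mice. The 6 knockout values were above the 3 wild-type values, but the comparisons share the wild-type mice and the counts are few. The fitted log2 fold changes of 2.15 (SE 0.743, edgeR adjusted p = 0.968) and 2.02 (SE 0.739, edgeR adjusted p = 0.363) rest on few counts and are not bounds. Over the alternatives they ranged from 1.56 to 3.32 and from 1.44 to 3.20. Olfr951 is 91.6% identical to Olfr954, also of the distal block, over 1580 bases, and its expected count was fractional in 6 of 9 mice while the pair's sum was whole in all. The sum of the pair was 2.06, 1.22 and 1.71 CPM in wild-type, 1.75, 2.59 and 2.46 in Ms4a cluster KO and 2.62, 3.16 and 2.93 in Ms4a6c KO mice. For the pair, Ms4a cluster KO thus overlapped with wild-type and Ms4a6c KO did not.

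**Figure D4:**
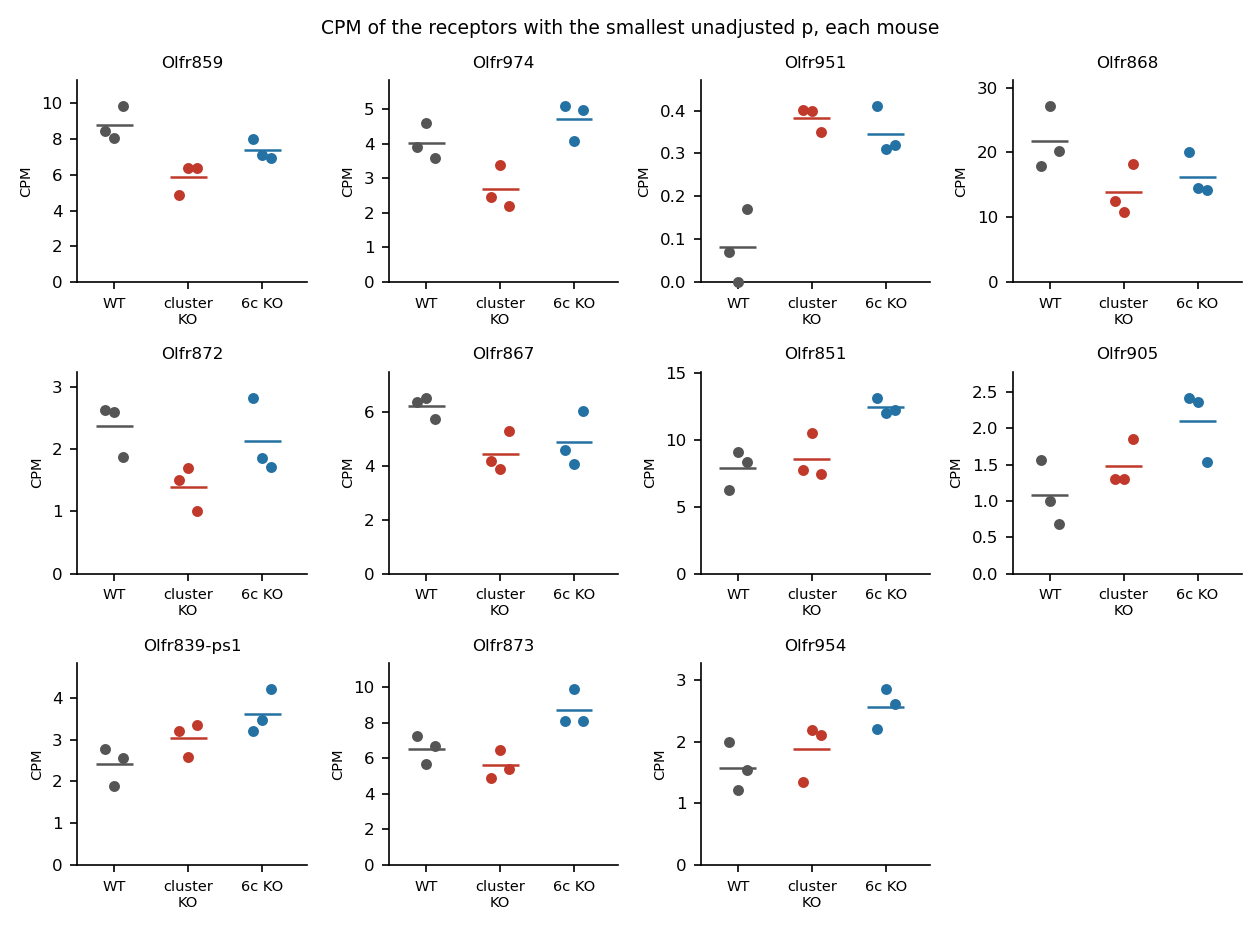
CPM of the 11 receptors with the smallest unadjusted p against wild-type in either knockout, with a point per mouse and a line at the mean of 3 mice, each panel on its own axis from 0. WT is wild-type, cluster KO the Ms4a cluster KO and 6c KO the Ms4a6c KO, and Olfr859 (4.86 to 6.38 CPM in the Ms4a cluster KO) and Olfr851 (11.97 to 13.12 CPM in the Ms4a6c KO) stand clear of their wild-type values.

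Compared directly, the knockouts differed in 0 of 100 receptors by the adjusted edgeR test (0.443% of all genes) and in 0 by DESeq2 (1.17% of all genes). The smallest adjusted p was 0.187 by edgeR and 0.073 by DESeq2, both for Olfr974. At an unadjusted p under 0.05, 0 receptors were higher and 7 lower in Ms4a cluster KO than in Ms4a6c KO mice, against 4.68% and 4.7% of all genes. The genotypes did not overlap for 15 receptors, all lower in Ms4a cluster KO mice, where 7.86% of all genes were higher and 8.09% lower without overlap. Of the 1009 other Olfr genes, 41 were higher and 137 lower at an unadjusted p under 0.05, and 51 were higher and 159 lower without overlap. The number with an unadjusted p under 0.05 was 15 without Ms4a cluster KO mouse 3, 4 without Ms4a6c KO mouse 1 and 11 without Ms4a6c KO mouse 2. When both gland-rich libraries were left out it was 12, and edgeR called 1 receptor, Olfr851 (adjusted p = 0.0309), which is lower in Ms4a cluster KO mice. The median log2 fold change was -0.32 over the receptors, with 26 of 28 proximal and 54 of 69 distal genes negative, against -0.16 for the other Olfr genes. Under scaling by summed Olfr counts these medians were -0.22 and -0.06, with all genes at 0.12. Olfr974 was at 5.08, 4.09 and 4.97 CPM in Ms4a6c KO mice, above its 3 values in Ms4a cluster KO mice, and Olfr873 at 4.91, 6.48 and 5.41 CPM in Ms4a cluster KO mice, below its 3 values in Ms4a6c KO mice.

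**Figure D5:**
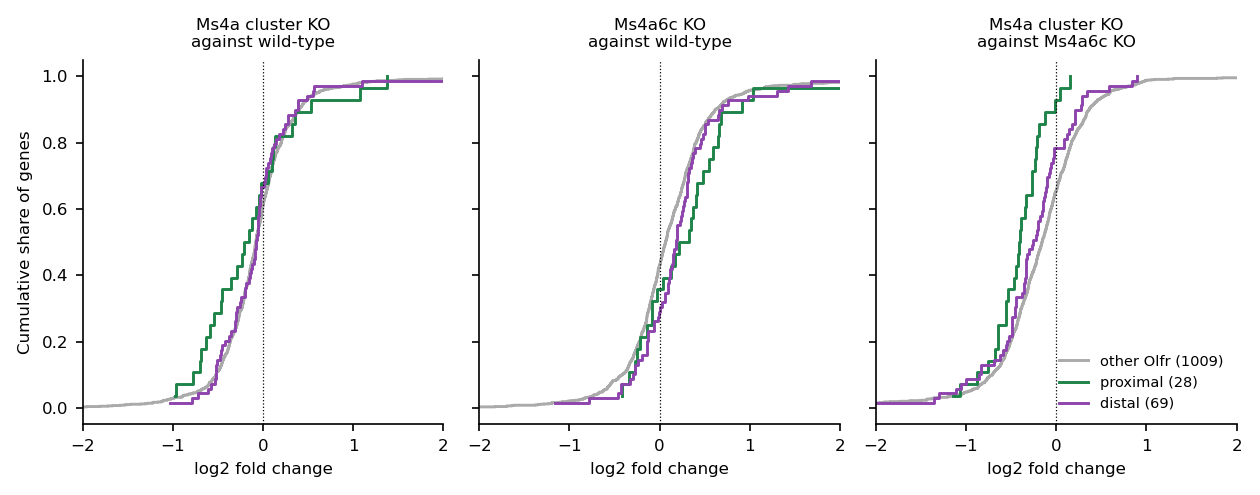
Cumulative share of genes by log2 fold change (axis cut at -2 and 2) in the 3 comparisons, for 28 proximal, 69 distal and 1009 other detected Olfr genes. For Ms4a cluster KO against wild-type the proximal curve lies left of the distal one at the median (-0.18 against -0.08) but not above it (upper quartiles 0.10 and 0.08), for Ms4a cluster KO against Ms4a6c KO the proximal median is -0.41, and the comparisons share mice.

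Spread between libraries limits these tests. Among the 82 receptors with 100 or more counts, the median coefficient of variation over the 3 wild-type mice was 23.8%, against 16.9% for 876 other Olfr genes and 9.44% for 17462 genes in all. The sets were not matched for level, and the detected receptors had a lower median than the other Olfr genes (0.626 against 1.14 CPM per kb). The coefficient includes counting error, and its part from differences between mice was not tested.

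Of 23 genes of receptor expression and signal transduction, among them Lhx2 and Ebf1, which regulate receptor genes, Rtp1 and Rtp2, which carry receptors to the cell surface, and Gnal, Adcy3 and Cnga2, which carry the signal, 0 passed the adjusted edgeR test between Ms4a cluster KO and wild-type mice. Rtp1 was at 592.8 ± 34.7 CPM in wild-type, 560.2 ± 54.1 in Ms4a cluster KO and 617.6 ± 12.6 in Ms4a6c KO mice (SD, n = 3 each), and Lhx2 at 178 ± 10.6, 181 ± 29.7 and 195 ± 10.4. The exception was Gng13, the gamma subunit of the olfactory G protein, which fell in Ms4a6c KO mice. It was at 347.4, 371 and 358.6 CPM in wild-type, 420.6, 331.6 and 367.2 in Ms4a cluster KO and 178.8, 197.7 and 203.1 in Ms4a6c KO mice. Its log2 fold change against wild-type was -0.89 (SE 0.091, edgeR adjusted p = 0.00121), and between the knockouts 0.95 (SE 0.091, edgeR adjusted p = 0.00073). It was the 1 gene of the 23 called in each of these comparisons, and it is not part of the Olfr family.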

How the data were processed

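Poly-A RNA of the main olfactory epithelium of 9 mice was made into directional libraries by the authors, who aligned reads with STAR 2.6.1, estimated with RSEM 1.3.1 the reads of each gene of the GENCODE M25 annotation (mm10), and deposited these expected counts without normalization. Genotype and replicate number came from the labels, and the labels do not say which mice shared a litter. Expected counts were rounded for testing. The 23225 genes with 10 or more counts over 9 mice were scaled by TMM and tested in a model of all mice in edgeR 4.0.16 (quasi-likelihood, R 4.3.3), with Benjamini-Hochberg adjustment over all of them, and DESeq2 1.42.0 was an alternative. Procedures were tested on simulated data. CPM per kb used merged exon lengths of GENCODE M21 (99.6% of genes matched), and near-identical stretches came from megablast (blast 2.17.0). SEs came from log2 fold changes and the F of their tests. Positions are GENCODE M21 gene bounds on GRCm38.

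The receptor set and the gene lists were chosen with earlier results of these data known. The genes named were the 10 of highest CPM per kb in wild-type mice, the 6 of smallest p in each knockout against wild-type, the 3 highest with a -ps suffix, the 3 lowest detected, 4 near-identical pairs and the 3 most like the highest gene in log2(CPM + 0.1). Alternatives were other scalings, filters, tools and samples, and those that leave out both gland-rich libraries or give shares of Olfr counts were added after seeing the data, as were every alternative for the proximal sum and for Gng13, the sums of Olfr859, Olfr872 and Olfr951 with their near-identical partners, and medians relative to all genes. Same-numbered mice did not deviate together (correlations -0.54 to 0.11 over 16537 genes), so the numbers were not taken as pairs. Replicates are separate mice of a genotype, and reads carry no molecular identifiers, so floors cover counting error only.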

Additional observations from a re-analysis of the deposited data

How the results depend on the processing

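The number of receptors called stayed at 0 in all 15 alternatives for Ms4a cluster KO against wild-type, and in 14 of 15 for each of the other comparisons. The exceptions were DESeq2, which called 1 in Ms4a6c KO against wild-type, and leaving out both gland-rich libraries, which called 1 between the knockouts; the cause was not tested. Leaving out single mice gave 0 in each comparison. With the replicate number as a replicate block, 0 receptors were called in each comparison, and 8, 7 and 7 had an unadjusted p under 0.05 in place of 9, 9 and 7, with Ms4a cluster KO against wild-type first, Ms4a6c KO against wild-type next and the knockouts last. The summed CPM difference of Ms4a cluster KO from wild-type lay between -47.1 and -22.2 with single mice left out, and was -36.4 without both gland-rich libraries. For Ms4a6c KO it lay between 6.00 and 29.1, was 6.00 without both gland-rich libraries and 56.3 with the plain library size; the cause was not tested. The proximal difference in Ms4a cluster KO lay between -21.1 and -15.6 with single mice left out. As shares of summed Olfr counts the 3 differences were -0.165, 0.311 and -0.163 percentage points, a different unit by construction. The number detected was 100, and 81 under the rule of more than 3 counts in every mouse. Of 166 alternative fold changes of the 12 named differences, 0 changed direction and 1 crossed the threshold, Olfr851 in DESeq2, which gave Olfr951 no adjusted p in Ms4a6c KO. The filterByExpr setting left out Olfr951. These differences were picked for a small p in the same counts that the alternatives reuse, so a change of direction was unlikely beforehand. Receptors with few counts are limited by depth. Gng13 kept its call and direction under every alternative run, with a log2 change between -0.93 and -0.84 against wild-type.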
